A study of Rattus norvegicus with 56 samples.

Results

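The GABA-A receptor subunits described here are 7 genes (Gabra2, Gabra3, Gabra4, Gabra5, Gabrb1, Gabrb2 and Gabrd) of 16481 named genes measured on rat expression microarrays. They were taken as the probes whose RefSeq accession belongs to each gene, and where a gene had more than 1 probe the brightest was read. All 7 genes had at least 1 probe, 9 probes in all, and all 9 were well above background on 55 of 55 arrays and entered every test. Gabra2 and Gabrb2 have 2 probes each, and their second probes are described separately below.

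The arrays held RNA from primary cultures of hippocampal neurons from embryonic day 18 Sprague-Dawley rats, grown in dishes and given repetitive transcranial magnetic stimulation (rTMS), in which a coil delivers pulsed magnetic fields. Cultures received a low-frequency 1 Hz protocol, intermittent theta burst stimulation (iTBS, short high-frequency bursts), or a sham session with the coil well away from the plate, and RNA was taken 0, 2, 8, 24 or 48 h after the session. Control cultures without any session exist for 0 h alone. After 1 array of the 1 Hz group at 2 h was left out for a failed spot grid, 55 arrays remained: 4 controls, 17 sham (4, 4, 3, 3 and 3 over the times), 16 with 1 Hz (3, 2, 4, 3 and 4) and 18 with iTBS (4, 4, 3, 3 and 4). The numbers that end the sample descriptions fall into 4 runs, called series A, B, C and D here, with 11, 12, 17 and 15 arrays; the labels do not say what a run is, and nothing says that replicates came from separate cultures, so p-values measure the spread between arrays only. A level is the log2 signal of a probe with the mean of its array set to 0 and the spread of all arrays made equal, and levels of different probes are not set against each other, because the brightness of a spot depends on its probe.

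GABA-A receptors are chloride channels of the neuronal membrane that open when GABA binds and carry most fast inhibition in the brain. Each channel is assembled from alpha and beta subunits, which form the GABA site between them, usually with a gamma or a delta subunit. Receptors with alpha2 or alpha3 sit mainly at synapses, whereas receptors with alpha5, or with alpha4 and delta, lie mostly outside synapses and carry tonic inhibition; alpha5 is enriched in hippocampal pyramidal cells and the delta subunit in dentate granule cells. Subunit genes are known to exchange for one another as neurons mature, and Gabra2, Gabra4 and Gabrb1 lie in 1 gene cluster on rat chromosome 14.

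The cultures carried the markers of neurons that the labels name, and of other cells. All 6 neuron markers, 6 excitatory and 7 interneuron markers were well above background on every array, and so were all 6 astrocyte and all 6 oligodendrocyte-lineage markers, whereas of 6 microglia markers 2 and of 4 endothelial and mural markers 1 were. Over all probes 23410 of 45178 were well above background on every array. Between 66.1% and 81.8% of probes were well above background on an array, and no spot was saturated. The array of the 1 Hz group at 48 h in series A (replicate 1) stood apart: its mean correlation with the other arrays, 0.946, was the lowest of the 55, its mean level over the neuron markers was 5.81 against 6.48 in sham and 6.55 in iTBS of the same series and time, and over the excitatory markers 3.92 against 4.67 and 4.37. Its astrocyte markers averaged 6.83 against 7.33 in sham and 7.59 in iTBS, and its interneuron markers 3.83 against 3.85 and 3.78. The oligodendrocyte-lineage markers averaged 6.06 against 6.23 and 6.97, and the microglia markers -0.15 against -0.63 and -1.37. The 75th percentile of its processed signals, 18416, was the highest of the 55 arrays. The results that turn on this array are given with and without it, and the others include it. In these bulk samples fewer cells of a type and less RNA per cell cannot be told apart.

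The first question was whether either protocol changed the subunits. None of the 7 genes passed the threshold of an adjusted p under 0.05 (limma across 35688 probes, Benjamini-Hochberg) in any of the 10 comparisons of a stimulated group with sham at the same time, 0 of 70 tests, and over all probes 0.0014% of the tests passed (1.64% at an unadjusted p under 0.05). The single comparisons called between 0% and 0.0056% of probes. A test over all 10 comparisons together gave an adjusted p of 1.00 for each of the 7 genes, with 0.0028% of probes past the threshold and unadjusted p-values from 0.181 for Gabrd to 0.996 for Gabra5. The control cultures differed from sham in 0 of the 7 genes (0.0028% of probes called), and iTBS differed from 1 Hz in 0 of 35 tests (0.00168% of tests called, at most 0.0056% in one comparison). A rebuild of the selection steps that the study's methods state (an ANOVA, a z-test with a false discovery rate, a z-ratio and a mean signal above 0) called 0 of the 70 tests and 16 probes in all, with z-ratios of at most 1.88 for the 7 genes. It did not use the study's own program, its z-ratios are not on a scale shown to be the study's, and its counts say nothing about the study's own calls. These counts do not show equality: the standard error of a single comparison at 0 h was 0.14 for Gabrd with iTBS, and group SDs had medians from 0.15 for Gabrd to 0.70 for Gabra5. The limma fit behind these comparisons held the 16 groups without series, so its standard errors include differences between series. With series at each time as a block, 0 of the 70 tests passed as well. The comparisons with sham then called 0% to 0.0308% of probes, and 1.7% to 16.2% at an unadjusted p under 0.05.

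Within a series the picture was the same. Stimulated arrays could be set against the sham array of their own series and time in 30 pairs, 13 for 1 Hz and 17 for iTBS. Gabra3 was higher than sham in 6 of 13 pairs with 1 Hz and in 11 of 17 with iTBS (medians -0.01 and 0.12), and Gabrb1, a beta subunit at the GABA site, in 5 of 13 and 10 of 17 (medians -0.01 and 0.05). Gabra5 was higher in 9 of 13 pairs with 1 Hz and in 6 of 17 with iTBS. No gene went one way in all pairs of a protocol: the counts of higher pairs were 6 and 7 for Gabra2, 8 and 8 for Gabra4, 4 and 9 for Gabrb2 and 6 and 4 for Gabrd. The lowest pairs for Gabra2, Gabra3 and Gabra4 (-1.95, -2.07 and -2.01) all came from the 1 array that stood apart. With it, Gabra3 was 0.69 ± 0.49 (SE) lower at 48 h after 1 Hz than in sham, and without it 0.22 ± 0.49 lower (adjusted p = 1.00 both times); for Gabra2 the difference went from -0.32 ± 0.35 to 0.12 ± 0.32.

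**Figure D1:**
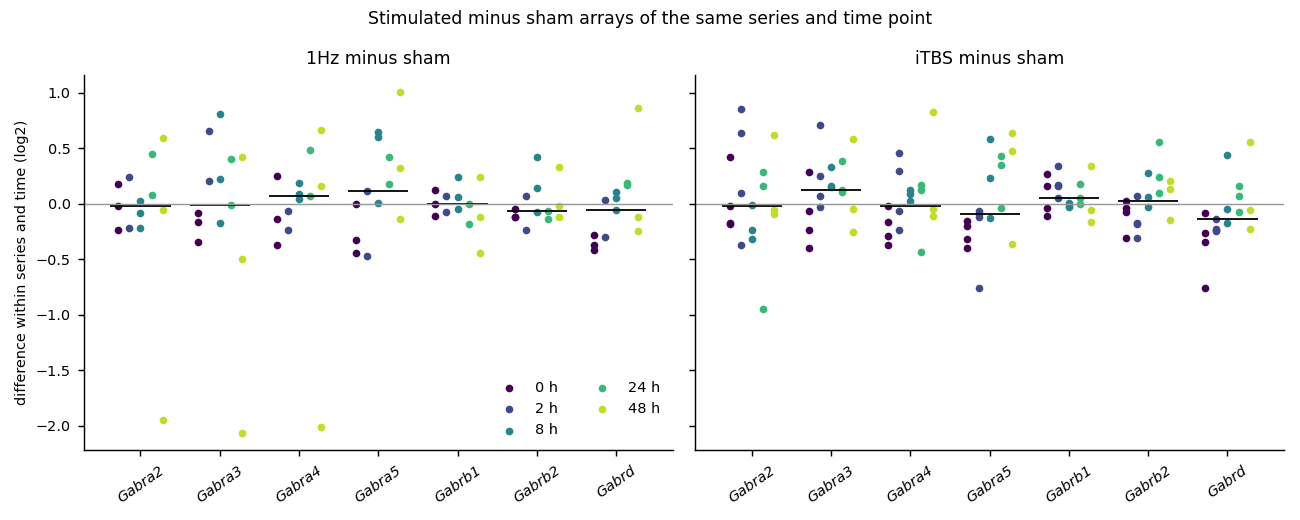
Differences in level (log2) between a stimulated array and the sham array of the same series and time, for 1 Hz (13 pairs, left) and iTBS (17 pairs, right); colours mark the time and black lines the median of a gene. Gabrd lies below 0 in all 7 pairs at 0 h, as do Gabra3, Gabra4, Gabra5 and Gabrb2 in 6 of 7. Taken by protocol, 18.7% of all probes are lower in all pairs at 0 h with 1 Hz and 16.5% with iTBS. The share lower in all 7 was not counted. The 3 points near -2 with 1 Hz come from a single array at 48 h.

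Gabrd, which encodes the delta subunit of receptors outside synapses, gave the smallest unadjusted p-values of the 7 genes. At 0 h its level was 2.38, 2.83, 2.25 and 2.30 on the sham arrays and 2.56, 2.39, 2.35 and 2.21 on the control arrays. It was 1.96, 1.97 and 1.93 after 1 Hz and 2.12, 2.16, 2.08 and 1.96 after iTBS. All 7 stimulated arrays thus lay below all 8 sham and control arrays. The difference from sham was -0.49 ± 0.15 (SE) for 1 Hz and -0.36 ± 0.14 for iTBS. The limma fit gave unadjusted p-values of 0.00300 and 0.0158 and an adjusted p of 1.00 for both, so neither passed. Of all probes, 1.5% lay below sham without overlap with 1 Hz, 0.661% with iTBS and 0.151% with both. These shares are against the sham arrays alone. The share that lay below sham and control arrays together was not counted, and the controls came from series A and C only. Gabrd was below sham in 7 of 7 pairs of the same series at 0 h, by 0.08 to 0.76, including 6 of 6 pairs hybridised on 1 slide. With 1 Hz 18.7% of all probes were lower in all 3 pairs at 0 h, and with iTBS 16.5% in all 4. The share lower in all 7 pairs was not counted, so the sign of the pairs cannot show whether Gabrd stands apart. Gabra3, Gabra4, Gabra5 and Gabrb2 were lower in 6 of 7 pairs, and Gabra3 and Gabrb2 in 6 of 6 on 1 slide. The sham array of series A (2.83) was the highest: without it the differences were -0.36 for 1 Hz and -0.23 for iTBS. After 0 h Gabrd was below sham in 13 of 23 pairs, and at 0 h the mean levels of the 6 lists of cell type markers overlapped between the arms: the neuron markers, for example, averaged 6.34 to 6.93 over the 1 Hz arrays, 6.22 to 6.88 over iTBS and 6.22 to 6.86 over sham. Each arm pools series that differ in these lists, and the oligodendrocyte-lineage list ran from 4.23 to 8.13 over the iTBS arrays. The overlap therefore cannot show whether the markers differed within a series, which was not tested.

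At later times the only groups without overlap with sham were Gabra4 at 2 h and Gabrb1 at 24 h after 1 Hz, both lower, where 2.33% and 2.55% of all probes lay below sham in the same way. The 1 Hz group at 2 h held series C and D only, while its sham group also held A and B, which had the highest Gabra4 of its 4 arrays; within pairs the differences were -0.07 and -0.23. The 1 Hz group at 24 h held series A where sham held B, and within pairs Gabrb1 differed by -0.0026 and -0.18.

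**Figure D2:**
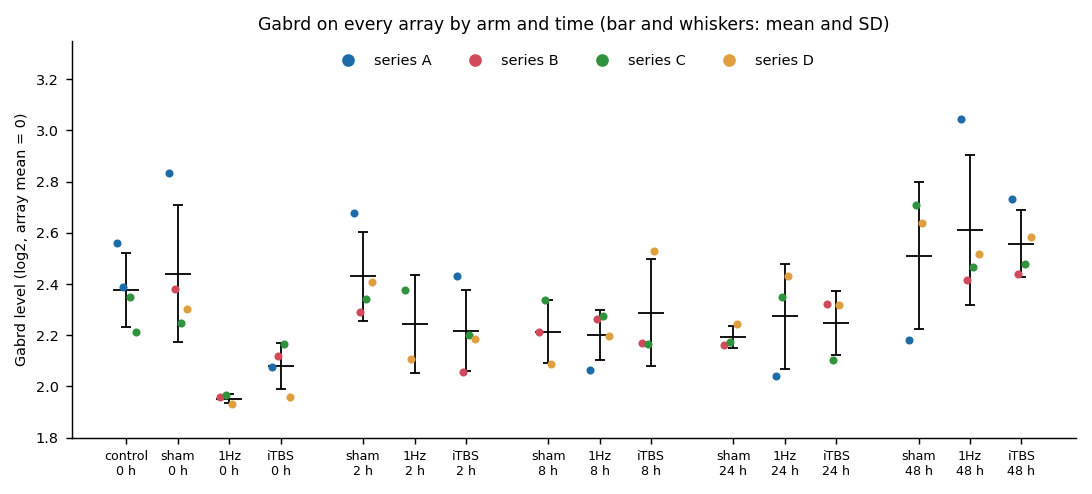
Level of Gabrd (log2, array mean at 0) on each array by arm and time, coloured by series, with the mean and SD of each group. At 0 h the 3 arrays with 1 Hz (1.93 to 1.97) and the 4 with iTBS (1.96 to 2.16) lie below the 4 sham (2.25 to 2.83) and 4 control arrays (2.21 to 2.56). Of all probes, 0.151% lie below sham with both protocols, and the share below sham and controls was not counted. At later times the arms overlap.

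The second question was how the subunits moved over the 48 h, whatever the arm. Averaged over sham, 1 Hz and iTBS, with series in the model, 3 of the 7 genes changed with time, against 27% of all probes: Gabra4 (adjusted p = 0.0189), Gabrb1 (adjusted p = 0.00498) and Gabrd (adjusted p = 0.00416). Gabra4 fell by 0.68 ± 0.18 (SE) from 0 to 48 h (adjusted p = 0.00494), whereas Gabrb1 rose by 0.26 ± 0.08 (adjusted p = 0.0175) and Gabrd by 0.38 ± 0.08 (adjusted p = 0.000522). Without the array that stood apart these were -0.54, 0.26 and 0.35, and all 3 still passed. At 48 h 13.6% of all probes were called higher and 13.4% lower than at 0 h, and the median over all probes was -0.04. Gabra2, Gabra3, Gabra5 and Gabrb2 did not pass (adjusted p = 0.443, 0.789, 0.162 and 0.446), with differences at 48 h of -0.38 ± 0.17, -0.13 ± 0.17, -0.10 ± 0.15 and 0.03 ± 0.09. Within series, Gabra2 fell in series B at 24 h (by 1.11 ± 0.33, adjusted p = 0.0111, 28.5% of probes called) and 48 h (by 0.93 ± 0.33, adjusted p = 0.0294, 33.4% called) and in series A at 48 h (by 0.84 ± 0.30, adjusted p = 0.0448, 21.1% called), where the mean difference was -0.87 with the array that stood apart and -0.24 without it. At 2, 8 and 24 h none of the 7 genes was called against 0 h (0%, 2.38% and 14% of probes called).

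**Figure D3:**
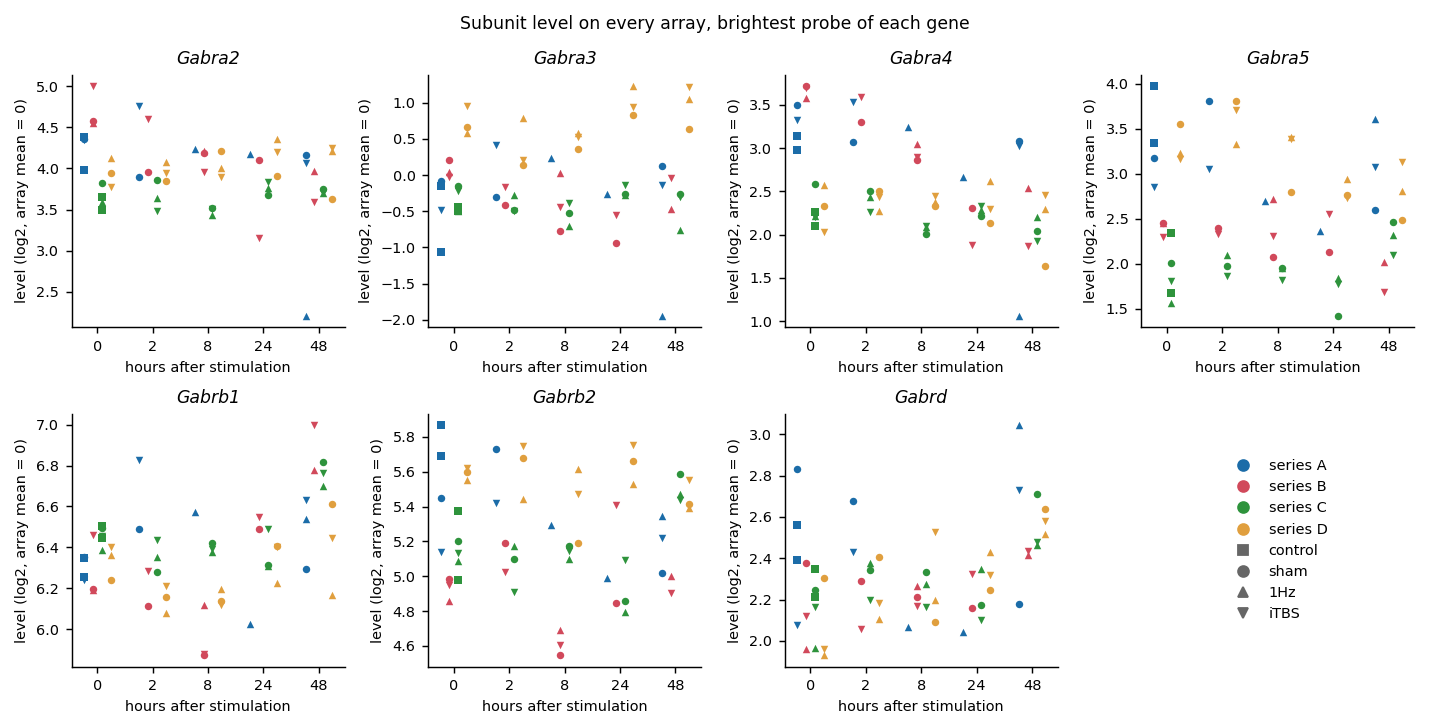
Level of each subunit (log2, array mean at 0; axes differ between genes) on each of the 55 arrays against hours after stimulation; colours mark the series and symbols the arm. The median of Gabra4 goes from 2.58 at 0 h to 2.20 at 48 h and that of Gabrb1 from 6.36 to 6.63, while Gabra3 and Gabra5 separate mainly by series.

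The slides limit this result. No slide held arrays of 1 series at both 0 and 48 h, so that time within a series and slide cannot be told apart; with slide as a term in the model 0 of the 7 genes passed over time, although the single difference of Gabra4 at 48 h, then -1.14, still did (adjusted p = 0.0179). Those of Gabrb1 and Gabrd kept their direction (0.24 and 0.32) but not the call (adjusted p = 0.332 and 0.170). The 17 sham arrays alone gave 0 genes as well, with 1 of all probes called.

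Gabra4, the alpha partner of delta in receptors outside synapses, had a median level of 2.58 (range 2.03 to 3.72) over 11 arrays at 0 h and medians of 2.50, 2.41 and 2.30 at the times between, down to 2.20 (1.06 to 3.08) at 48 h. The medians thus went down at each step, but the arrays at 0 and 48 h overlapped. The fall stood in 2 of the 4 series: it was 0.96 ± 0.29 (SE) in series A (adjusted p = 0.0170, 21.1% of probes called) and 1.46 ± 0.32 in series B (adjusted p = 0.000605, 33.4% called), against -0.31 ± 0.27 in series C and -0.18 ± 0.29 in series D (adjusted p = 0.578 and 0.704; 7.42% and 22% called). In series B the level went from 3.58 to 2.53 with 1 Hz and from 3.70 to 1.87 with iTBS. In series A the mean difference was -1.02 with the array that stood apart and -0.36 without it. Over all series the fall without that array was 0.54 ± 0.15 (adjusted p = 0.00696), and without series B it was 0.46 ± 0.19 and no longer passed (adjusted p = 0.0855). By arm the difference was -0.67 ± 0.32 in sham, -0.87 ± 0.32 with 1 Hz and -0.49 ± 0.30 with iTBS, none past the threshold. The 1 Hz value was -0.44 ± 0.28 without the array that stood apart, whereas without the 48 h array of series C or of series D it was -1.08 each time and passed (adjusted p = 0.0355 and 0.0326).

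Gabrb1 lay between 6.19 and 6.50 on the 11 arrays at 0 h, between 5.87 and 6.57 at 8 h, and between 6.17 and 6.997 (median 6.63) at 48 h. Most arrays at 48 h, but not all, were above those at 0 h. The rise was 0.60 ± 0.11 (SE) in series B (adjusted p = 0.000113) and 0.31 ± 0.10 in series C (adjusted p = 0.0390), against 0.21 ± 0.10 in series A and 0.07 ± 0.10 in series D, which did not pass (adjusted p = 0.148 and 0.641). The highest levels at 48 h were 6.997 with iTBS in series B and 6.82 in sham of series C, and the lowest was 6.17 with 1 Hz in series D. The rise no longer passed without series B (0.18, adjusted p = 0.143), without series C (0.23, adjusted p = 0.180) or without the sham array of series D at 48 h (0.24, adjusted p = 0.0518). Over all times, 1 of the 7 genes passed without series B and 0 without series C or series D.

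Gabrd had medians of 2.12, 2.32, 2.21 and 2.24 at 0, 2, 8 and 24 h and of 2.52 (range 2.18 to 3.04) at 48 h. It was higher at 48 h than at 0 h in all 4 series, by 0.24 in A, 0.30 in B, 0.40 in C and 0.52 in D, of which only D passed (adjusted p = 0.0201). In series A the mean difference was 0.20 with the array that stood apart and 0.0025 without it, while a test of whether the time courses differed between series gave an adjusted p of 0.751. By arm it rose by 0.63 ± 0.14 (SE) with 1 Hz (adjusted p = 0.00664, 7.63% of probes called) and by 0.48 ± 0.13 with iTBS (adjusted p = 0.0169, 10.4% called). In sham the difference was 0.05 ± 0.14 (adjusted p = 0.916, 1.6% called). The sham value turned on series A, where sham went from 2.83 to 2.18, while it went from 2.25 to 2.71 in series C and from 2.30 to 2.64 in series D; without the sham array of series A at 48 h it was 0.27 ± 0.15. The test of a different change from sham over the times gave an unadjusted p of 0.0627 for 1 Hz and 0.167 for iTBS (adjusted p = 1.00 for both, 0% of probes called). With iTBS the rise no longer passed without the array of series A at 0 h, of series D at 0 h or of series A at 48 h (0.44, 0.44 and 0.45; adjusted p = 0.0573, 0.0577 and 0.0683), and with 1 Hz it was 0.51 without the array that stood apart (adjusted p = 0.0494).

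The 3 genes called over time are shown with their promoters, 250 bases before to 50 after the annotated start (RefSeq, build GRCr8), as Gabra4 and Gabrb1 are neighbours that read away from each other, their starts 41854 bases apart, and moved in opposite directions. The file of promoters held 6 of the 7 genes, not Gabra2. Each line runs 5′ to 3′ along the gene's strand, and capitals mark the GC box GGGCGG or its reverse complement CCGCCC.
Gabra4, chr14:36944497-36944796, plus strand: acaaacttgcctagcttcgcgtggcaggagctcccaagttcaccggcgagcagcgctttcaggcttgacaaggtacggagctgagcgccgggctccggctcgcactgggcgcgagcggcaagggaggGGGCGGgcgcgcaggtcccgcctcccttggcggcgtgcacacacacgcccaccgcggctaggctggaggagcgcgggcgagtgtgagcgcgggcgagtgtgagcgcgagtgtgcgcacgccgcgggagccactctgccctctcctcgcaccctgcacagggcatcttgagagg
Gabrb1, chr14:36902844-36903143, minus strand: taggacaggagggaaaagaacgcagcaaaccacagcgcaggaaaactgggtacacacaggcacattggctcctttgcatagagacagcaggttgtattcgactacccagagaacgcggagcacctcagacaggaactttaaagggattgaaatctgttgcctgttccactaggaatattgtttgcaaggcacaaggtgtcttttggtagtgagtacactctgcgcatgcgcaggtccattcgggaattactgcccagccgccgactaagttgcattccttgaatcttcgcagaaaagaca
Gabrd, chr5:171252660-171252959, minus strand: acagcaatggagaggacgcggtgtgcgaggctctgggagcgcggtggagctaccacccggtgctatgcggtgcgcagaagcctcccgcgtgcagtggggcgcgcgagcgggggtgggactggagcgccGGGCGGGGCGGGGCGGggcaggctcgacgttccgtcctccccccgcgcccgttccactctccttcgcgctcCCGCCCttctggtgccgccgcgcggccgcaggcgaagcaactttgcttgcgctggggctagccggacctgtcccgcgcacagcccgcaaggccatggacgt
The promoters of Gabra4 and Gabrd are rich in G and C (70.7% and 73.7%, with 35 and 40 CG pairs) and that of Gabrb1 is not (49.3%, 11 pairs), against medians of 51.7% and 7 pairs over 33469 promoters. The GC box was found on either strand 1 time for Gabra4, 4 times for Gabrd (3 of them overlapping), 1 time for Gabra5 and not for Gabra3, Gabrb1 or Gabrb2, and 33.1% of all promoters hold it. None of the 6 windows held the cAMP response element core TGACG (21.2% of all promoters), the E-box CACGTG (6.42%) or the EGR motif GCGTGGGCG (0.544%) on either strand. The CCAAT box was found 1 time each for Gabra3 and Gabrb1 (37.5%), and the TATA box TATAAA for Gabra3 (14.2%).

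Markers of other cells moved over the same hours, in which 13.6% of all probes were called higher and 13.4% lower. Of 6 astrocyte markers 4 rose from 0 to 48 h: Gfap, an intermediate filament, by 1.64 ± 0.22 (SE), Aqp4, a water channel, by 1.04 ± 0.16, Gja1, a gap junction protein, by 0.70 ± 0.09 and Aldoc by 0.49 ± 0.15, with a median of 0.59 for the list. Of 6 neuron markers 3 fell (Map2, Tubb3 and Stmn2, by 0.64, 0.63 and 0.38), with a median of -0.33, and of the 6 excitatory markers Prox1, a transcription factor of dentate granule cells, fell by 0.72 ± 0.27, as did Dlx1 of the 7 interneuron markers, by 0.45 ± 0.11. No oligodendrocyte-lineage or microglia marker was called. The mean level of the astrocyte list ranged from 6.42 to 7.37 over arrays at 0 h and from 6.83 to 8.25 at 48 h. Their part in the changes of Gabra4, Gabrb1 and Gabrd was not tested.

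The third question was whether the subunits differed between the 4 series, and here most of them did. The levels of 5 of the 7 genes differed between series, against 75.4% of all probes, so that a call by itself sets no gene apart: Gabra5 (adjusted p = 2.17e-11), Gabra3 (adjusted p = 1.84e-08), Gabrb2 (adjusted p = 1.55e-07), Gabra4 (adjusted p = 6.92e-05) and Gabra2 (adjusted p = 0.0129). Gabrb1 and Gabrd did not pass (adjusted p = 0.0622 and 0.299). The profiles over the series differed from gene to gene.

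Gabra5 formed a high and a low pair of series. Its level ran from 2.36 to 3.98 (median 3.08) in series A and from 2.49 to 3.81 (median 3.16) in series D, but from 1.69 to 2.73 (median 2.32) in series B and from 1.42 to 2.46 (median 1.95) in series C. Every array of series D was above every array of series C, while A and D overlapped. The share of all probes that separate D from C in this way was not counted, so the separation sets Gabra5 apart from no other gene. Series D was above C by 1.25 ± 0.12 (SE; adjusted p = 6.45e-11, 28.7% of probes called higher) and above B by 0.89 ± 0.14 (adjusted p = 8.25e-07, 28.9%), and series C was below A by 1.15 ± 0.14 (adjusted p = 1.98e-08, 22.1% of probes called lower). Series D and A differed by 0.11 ± 0.15 (adjusted p = 0.593). In either direction the 6 pairs of series differed in 30.4% (B and A), 42.9% (C and A, 20.9% higher in C), 41.7% (D and A), 32.7% (C and B), 53% (D and B) and 52.5% (D and C) of probes.

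Gabra3, which encodes an alpha subunit prominent in the immature brain, was higher in series D than in each of the others. It ran from 0.14 to 1.23 (median 0.66) over the 15 arrays of series D, against medians of -0.15, -0.29 and -0.38 in A, B and C. Its highest level was 0.41 in series A, 0.20 in series B and -0.14 in series C, so that D lay apart from C and overlapped A and B. For this gap too the share of all probes was not counted. Series D was above C by 1.08 ± 0.14 (adjusted p = 2.14e-08), above A by 1.06 ± 0.16 (adjusted p = 1.41e-06) and above B by 0.97 ± 0.15 (adjusted p = 1.13e-06). The differences of B from A, C from A and C from B were 0.08, -0.03 and -0.11, and none passed.

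Gabrb2, which encodes a common beta subunit of synaptic receptors, was highest in series D as well (median 5.55, range 5.19 to 5.76) and lowest in series B (median 4.93, range 4.55 to 5.41). Series D was above B by 0.65 ± 0.09 (SE; adjusted p = 4.20e-08), above C by 0.42 ± 0.08 (adjusted p = 1.82e-05) and above A by 0.24 ± 0.09 (adjusted p = 0.0349). Gabra4 split the series another way, with medians of 3.08 in A and 2.97 in B against 2.21 in C and 2.33 in D. Series C was below A by 0.71 ± 0.17 (adjusted p = 0.000752) and D below B by 0.62 ± 0.17 (adjusted p = 0.00191) as averages over the times, and neither A and B nor C and D differed (adjusted p = 0.996 and 0.609). Taken time by time, these differences of Gabra4 passed at 0 and 2 h and not at 24 or 48 h. The difference of D from B was -1.36 at 0 h and -1.03 at 2 h (adjusted p = 0.000307 and 0.0147; 34.7% and 27.7% of probes called), but 0.27 at 24 h and -0.08 at 48 h (adjusted p = 0.541 and 0.869; 38.2% and 40.4% called). That of C from A was -0.98 at 0 h (adjusted p = 0.00125, 37.1% called) and -0.33 at 48 h (adjusted p = 0.494, 15.5% called). The 48 h value includes the array that stood apart: series A lay at 3.08 in sham, 3.03 with iTBS and 1.06 on that array. Series C lay at 2.04 in sham, 2.20 with 1 Hz and 1.93 with iTBS. The difference at 48 h without that array was not computed. At 8 h, where series A held a single array, C differed from A by -1.20 and D from B by -0.55. Without the array that stood apart the average of C minus A was -0.89. Gabra2 was lowest in series C (median 3.65, range 3.44 to 3.86), which was below B by 0.52 ± 0.16 (adjusted p = 0.00945) and below D by 0.38 ± 0.14 (adjusted p = 0.0263). For Gabrb1 the difference of D from C was -0.19 ± 0.07 (adjusted p = 0.0181), although the gene did not pass over all series.

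**Figure D4:**
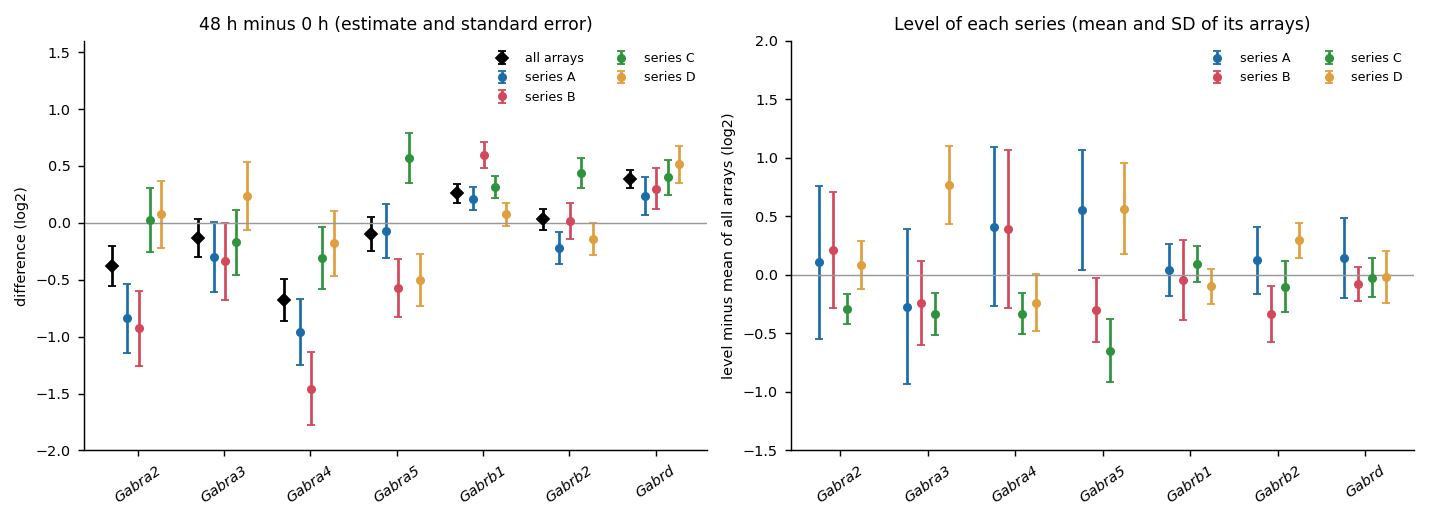
Left, difference in level (log2) between 48 h and 0 h for each subunit over all arrays (black, estimate and standard error from limma) and within each series (colours). Right, mean and SD of the level of each series, minus the mean of all arrays of that gene. The change of Gabra4 from 0 to 48 h is most negative in series A and B (left), and the mean level of Gabra3 is highest in series D (right). Series A includes the array that stood apart: its mean difference for Gabra4 was -1.02 with that array and -0.36 without it.

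The series also differed in their cell type markers. Of all probes, 28.7% were called higher in series D than in C. Of the 6 oligodendrocyte-lineage markers all 6 were lower in series D than in C, with a median of -3.57 against 0.04 over all probes, of which 23.7% were called lower; Mbp, a myelin protein, was lower by 6.43, Sox10 by 4.67 and Pdgfra by 3.41. Of 7 interneuron markers 6 were higher in D, with a median of 1.35 (Gad1 by 1.41, Gad2 by 1.64 and Slc32a1 by 1.76, the enzymes that make GABA and the transporter that loads it into vesicles, which also belong to the GABA system counted below), as were 5 of 6 excitatory markers (median 0.49) and 3 of 6 neuron markers (median 0.36). Of the 6 astrocyte markers 4 were lower and Gfap was higher by 2.04, and of the 6 microglia markers 3 were lower and 2 higher, C1qa by 3.42 and Aif1 by 2.29. The mean level of the oligodendrocyte-lineage list lay between 3.46 and 5.20 on the arrays of series D and between 7.31 and 8.24 on those of series C, and the interneuron list between 4.16 and 4.90 and between 3.41 and 3.68. Their part in the differences of the subunits between series was not tested.

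**Figure D5:**
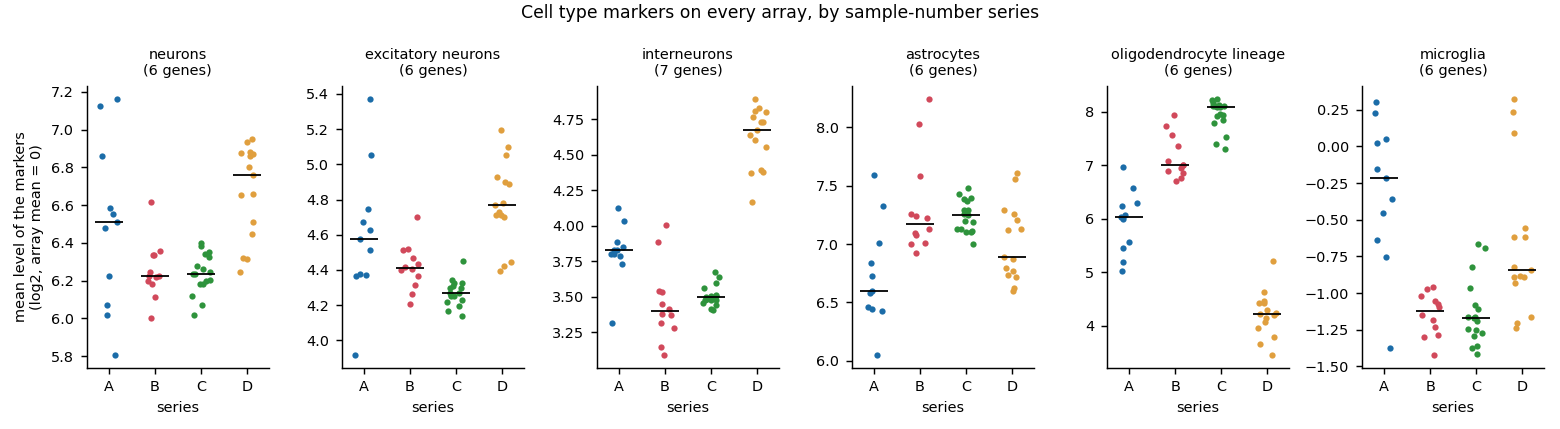
Mean level (log2, array mean at 0) of 6 lists of cell type markers on each array, by series; black lines are medians. The oligodendrocyte-lineage list is lowest and the interneuron list highest in series D, with no overlap with the other series for the interneuron list.

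The time course itself differed between series for 3 of the 7 genes, Gabrb1 (adjusted p = 0.000238), Gabrb2 (adjusted p = 0.0103) and Gabra5 (adjusted p = 0.0357), against 41.9% of all probes. Gabrb2 rose from 0 to 48 h in series C (0.44 ± 0.13, SE; adjusted p = 0.0353) and was at -0.22 ± 0.14, 0.02 ± 0.16 and -0.14 ± 0.14 in A, B and D. Gabra5 was at 0.57 ± 0.22 in C but -0.57 ± 0.26 in B and -0.50 ± 0.23 in D, none of which passed by itself. Gabra4 did not pass (adjusted p = 0.0746), but did when any of 5 single arrays was left out, among them the 1 Hz array that stood apart (adjusted p = 0.000196), as did Gabra3 (adjusted p = 0.0447), so that 5 genes passed without it. Without the sham array of series A at 48 h Gabra4 and Gabra3 passed too (adjusted p = 0.0165 and 0.0321). The call of Gabra5 was lost when any of 6 single arrays was left out, with adjusted p-values up to 0.0787.

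The second probes of Gabra2 and Gabrb2 gave partly other values. The other Gabra2 probe had a difference of 0.09 ± 0.10 (SE) at 48 h, where the brightest had -0.38 ± 0.17, and its series differed more, with D above C by 0.87 ± 0.08 (adjusted p = 2.06e-11). The other Gabrb2 probe, with a mean processed signal of 101 over the arrays, was lower by 0.58 ± 0.22 at 48 h (adjusted p = 0.0410), although it did not pass over all times (adjusted p = 0.238), where the brightest had 0.03 ± 0.09. It too was higher in D than in B (0.92 ± 0.20) and C (1.29 ± 0.18). The 2 probes of a gene were assigned to different transcript accessions for Gabrb2 and to the same one for Gabra2.

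Of the 12 other GABA-A subunit genes, 8 could be tested and 6 were well above background on all arrays; Gabra6, Gabrp and Gabrr1 were not well above background on any array and Gabre on 1. Gabrg1, which lies in the same cluster as Gabra2, Gabra4 and Gabrb1, rose by 0.42 ± 0.16 (SE) from 0 to 48 h (adjusted p = 0.0420) and was lower in series D than in C by 0.44 ± 0.13 (adjusted p = 0.00421). Gabrg3 was higher in D by 0.47 ± 0.13 (adjusted p = 0.00318). Gabrr2, higher by 1.08, was well above background on 3 arrays only.

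Other parts of the GABA system were counted in the same way. Of 20 genes for receptor clustering, assembly and trafficking 0 were called at 48 h (median 0.02), against 27% of all probes. Between series 12 of the 20 differed, against 75.4% of all probes. Trak2 and Rdx, for example, were lower in series D than in C by 0.49 and 0.66, and Shisa7 and Iqsec3 higher by 0.52 and 0.50. Of 2 chloride cotransporters, Slc12a2 (NKCC1, which loads neurons with chloride) fell by 0.37 ± 0.08 (SE; adjusted p = 0.000943), while Slc12a5 (KCC2, which removes it) was at 0.02 ± 0.08. Of 2 GABA-B receptor genes 0 were called at 48 h. Abat, which breaks GABA down, was at 0.10 ± 0.11 at 48 h (adjusted p = 0.549) and was lower in series D than in C by 0.90 ± 0.09 (adjusted p = 7.64e-11). None of these genes was called in any comparison with sham.

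Within series, the levels of some subunits varied together over arrays, which share slide, hour and series. The mean of the 4 within-series correlations was 0.74 for Gabra2 with Gabra4 (0.48 to 0.96), 0.59 for Gabra2 with Gabra3 and 0.58 for Gabra5 with Gabrb2, and -0.39 for Gabra4 with Gabrb1. Without the array that stood apart these were 0.68, 0.52, 0.59 and -0.25, and the correlation of Gabra4 with Gabrb1 in series A went from 0.04 to 0.59. Over 13877 genes and 4 series, the genes whose levels were most like those of a subunit were Lmbrd2, Cxadr and Slc39a9 for Gabra2 (mean r from 0.78 to 0.79), Pcdh11x, Zdhhc17 and Slc4a10 for Gabra3 (0.66 to 0.70), Clcn5, St6gal2 and Dok6 for Gabra4 (0.79 to 0.83), and Cmtr2, Dipk1a and Gnai1 for Gabra5 (0.84 to 0.85). For Gabrb1 they were Cd47, Itm2b and Gstm1 (0.75 to 0.80), for Gabrb2 Elmod1, Lysmd3 and Clcn4 (0.78 to 0.80), and for Gabrd Adcy2, RT1-DMa and Col11a2 (0.78 to 0.81).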

How the data were processed

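RNA of cultured neurons was hybridised to 56 one-colour Agilent rat arrays (Cy3). Per the file headers, the deposited intensity values are processed signals from Feature Extraction 12.0.3.1, background-subtracted and detrended within each array, annotated on build rn4. The authors also deposited a score for each probe, the z-score of its log signal within the array, used as an alternative (largest difference from recomputed values 0.005). Outlier spots were left out, spots of a probe averaged, and log2 signals centred on the array mean and scaled to the median SD of the arrays (4.06). Of 45178 complete probes, those flagged above background on 3 arrays or more (35688) were tested. The tests used limma 3.58.1 (R 4.3.3, Benjamini-Hochberg, adjusted p under 0.05). Comparisons between arms used the 16 groups alone, without series. Levels over time and between series were tested with the 16 groups and series. The test of time courses between series used arm, time and series. Time differences weight the arms equally. Files were read and figures drawn with Python 3.11.15. The number of arrays limits the precision. The fits were tested on simulated data.

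The 7 genes, the other lists and the naming rule (the 7 genes, up to 4 called genes per list, and 3 genes most like each) were chosen with earlier results of these data known, and the study itself singled out Gabra4, Gabrb1 and Gabrd on these arrays, so none of this is independent evidence. Alternatives were the 75th percentile, quantile and normexp (offset 50, on median signals) scalings, the deposited z-scores, no filter, outliers kept, all 56 arrays, blocks for replicate number, series and slide, and each array left out; analyses within arms or series, without a series, and of sham alone were chosen after seeing the data. Some genes of the other lists are not reported here.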

Additional observations from a re-analysis of the deposited data

Results flagged for a closer look

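Gabrd on the array of the 1 Hz group at 48 h in series A lay at 3.04, with the nearest of the other 3 arrays of its group at 2.52; the gap divided by the range of the group was 0.841. This is the array that stood apart from all others. Of 56 sets of arrays examined for the 7 genes, 1 had such a gap, and chance gives it in about 5%. The time course differed between the 4 series, by the interaction of time and series, for Gabra5 (adjusted p = 0.0357, limma), Gabrb1 (adjusted p = 0.000238) and Gabrb2 (adjusted p = 0.0103).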

How the results depend on the processing

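No value changed sign in a called result under any alternative. Stimulation called 0 of 70 tests of the 7 genes under every alternative but all 56 arrays (5, and 6 for iTBS against 1 Hz), where the array with the failed grid entered; over all probes it called 5 against 9 with normexp, 9 with no filter, 3 with the deposited z-scores, 14 with series at each time as a block, 16 by the rebuilt criteria of the study's methods, 17713 with all 56 arrays and 3 to 42 with 1 array left out (42 without replicate 1 of 1 Hz at 2 h, which leaves that group 1 array, assumed to vary like the others). Over time 3 genes and 9636 probes were called, against 0 and 2175 with all 56 arrays, 0 genes with slide as a block, 0 and 1 in sham alone, 2911 probes with no series in the model, 1 gene without series B, 0 without C, 0 and 3547 without D, and 2 to 3 genes with 1 array left out. Between series 5 genes and 26902 probes were called, against 3 and 12843 with all 56 arrays and 3 and 12618 in sham alone. Each slide held arrays of 2 series, so series and slide can be told apart only in part. With slide as a block, 11 of 36 results followed here changed in a call or a count, and 0 changed sign. The time course differed between series for 3 genes and 14951 probes, against 0 and 1310 with all 56 arrays, 1 and 4067 with slide as a block, and 2 to 5 genes with 1 array left out (53 fits; for the other 2 arrays it could not be fitted). The causes were not tested.

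With the replicate number as a block 3 genes were called over time, 5 between series and 2 for the time course between series, where Gabra5 was lost (adjusted p = 0.0503), as were the differences of D from B for Gabra4 (-0.58, adjusted p = 0.196), of D from C for Gabrb1 (-0.18, adjusted p = 0.175) and of D from C for Gabra2 (0.33, adjusted p = 0.280); it changed no other call. Arrays of 1 number deviated together less (mean correlation 0.160, lowest -0.462) than arrays of 1 series (0.398), so the numbers were not taken to pair samples.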
